A study of Mus musculus with 9 samples.

Results

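Genes of the insulin-like growth factor (IGF) axis were followed through single-cell suspensions of mouse brain. The 9 members were the ligand genes Igf1 and Igf2, the receptor gene Igf1r and the binding protein genes Igfbp2, Igfbp3, Igfbp4, Igfbp5, Igfbp6 and Igfbp7. They were listed by name from the 18634 genes of the table of unique molecular identifiers (UMIs), with earlier results of these data known. Other genes of the axis in the table, such as Igf2r and Igfbp1, were not members and are given with the wider pathway. Shares of members that pass a rule are therefore not those of an unselected family. The study compared brainstem, cortex and hypothalamus of C57BL/6 mice (C57BL/6J in the study's methods) aged 9 to 11 weeks in Normal Sleep (NS), after 12 h of Sleep Deprivation (SD) from lights on, and after the same deprivation followed by Recovery Sleep (RS), which the labels give as 24 h in one place and as 12 h in another. All brains were collected at zeitgeber time 12, each library came from 3 pooled animals, and there was 1 library for each region and sleep group. From the part of the study's cell lists used here only 1 library could be tied to its sample, so no difference between sleep groups was tested. Tissue had been dissociated with papain and passed over myelin removal beads, and the shares of cell types in such suspensions need not be those of the tissue.

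In the IGF axis, IGF-1 and IGF-2 are secreted peptides that bind the receptor tyrosine kinase encoded by Igf1r, and signalling then runs through insulin receptor substrates to the PI3K and AKT kinases. The IGF-binding proteins hold the peptides outside cells, which limits or delivers them, and proteases release the peptides again. In brain, Igf2 is known as a product of leptomeninges and choroid plexus, while IGFBP7 binds IGFs weakly and is known in vascular basement membrane.

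The 9 libraries are called 1 to 9 in the order of their codes in the table, and these codes match no sample label. The numbers were not read as a region or a sleep group. The study lists cells of brainstem NS by barcode and cell type, and the 1999 entries used here are a part of that list. Library 7 held all of them and was assigned to brainstem NS, whereas each other library held 5 to 13 of them and stayed unassigned. Libraries had 2575 to 3916 cells and 1522766 to 5488950 UMIs, with a median of 402 to 1055 UMIs per cell. Barcodes found in more than 1 library made up 1105 of the 29571 cells (3.74%). In libraries 4, 5 and 6 the pituitary hormone gene Gh held 25.3%, 27.9% and 32.1% of all UMIs, so these libraries stood apart from the rest, and the main values that rest on them are also given without them, a restriction chosen after seeing the data. Levels are given as CPM (UMIs of a gene scaled to a library, type or class total of 1e6), with exact 95% Poisson intervals that cover counting error only.

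The member genes lie on 6 mouse chromosomes (GRCm38, GENCODE M21 gene models). Igf1 spans chr10:87858265-87937042 on the plus strand and overlaps the antisense gene Igf1os. Igf2 spans chr7:142650766-142666816 on the minus strand, overlapping Igf2os, Mir483 and the same-strand gene model Gm49394, while Igf1r spans chr7:67952827-68233668 on the plus strand. Igfbp3 spans chr11:7206086-7213923 (minus), Igfbp4 spans chr11:99041244-99054392 (plus), Igfbp6 spans chr15:102144362-102149511 (plus) and Igfbp7 spans chr5:77349240-77408041 (minus), where it overlaps Polr2b and Gm34648. Igf1os, Igf2os, Polr2b and Gm34648 lie on the strand opposite to the member gene, whereas Mir483 and Gm49394 share the strand of Igf2. How reads in the overlaps were assigned was not examined, so these values carry that uncertainty.

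Igfbp2 (chr1:72824503-72852474, plus) and Igfbp5 (chr1:72857932-72874884, minus) are neighbours that point at each other, with 5457 bases between their 3′ ends. Their start regions are shown because the levels of these neighbouring genes were led by different classes of cells, and that of Igfbp6 because neuron-like cells held most of its UMIs in libraries 1, 2 and 3 while fibroblast-like cells had the highest level. Each sequence is the 250 bases before the RefSeq start (GRCm38.p6), written 5′ to 3′ on the strand of the gene, with capitals marking matches, on either strand, to a TATA box (searched as TATAAA) or to the box with the letters CCAAT or to a GC box (searched as GGGCGG) or to an E-box (searched as CACGTG), none of which overlap each other here. They cover chr1:72824230-72824479 for Igfbp2, chr1:72874866-72875115 for Igfbp5 and chr15:102143936-102144185 for Igfbp6. RefSeq gives a second start for Igfbp2, and the first is shown here.
Igfbp2: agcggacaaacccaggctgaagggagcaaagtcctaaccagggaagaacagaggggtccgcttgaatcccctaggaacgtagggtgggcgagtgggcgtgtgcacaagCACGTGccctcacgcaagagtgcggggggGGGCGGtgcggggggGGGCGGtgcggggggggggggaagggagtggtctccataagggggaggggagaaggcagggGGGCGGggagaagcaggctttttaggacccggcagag
Igfbp5: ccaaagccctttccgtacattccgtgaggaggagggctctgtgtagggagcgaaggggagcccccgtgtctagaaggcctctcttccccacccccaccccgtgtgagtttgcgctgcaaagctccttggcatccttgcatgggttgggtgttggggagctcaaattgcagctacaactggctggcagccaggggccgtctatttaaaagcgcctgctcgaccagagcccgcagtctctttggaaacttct
Igfbp6: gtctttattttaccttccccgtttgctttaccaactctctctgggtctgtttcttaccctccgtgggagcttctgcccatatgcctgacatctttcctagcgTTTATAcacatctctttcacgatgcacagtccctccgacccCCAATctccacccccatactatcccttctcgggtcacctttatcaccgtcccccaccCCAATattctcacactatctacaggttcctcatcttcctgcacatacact

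The Igfbp2 region held 3 GC boxes and 1 E-box and had 67.2% G and C. The region of its second start (chr1:72825137-72825386) had 56.4% G and C and held none of these letters. The Igfbp5 region held none of these letters, which says nothing of the factors that may bind there. The Igfbp6 region held 1 TATA box and 2 CCAAT boxes. Among 32851 RefSeq regions of the same length, 12.4% held such a TATA box, 33.8% a CCAAT box, 32.7% a GC box and 6.02% this E-box. All 9 genes matched a RefSeq entry by symbol. These matches describe the sequence and were not related to any binding measured here.

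To ask how strongly each gene differed between cell suspensions, its level was compared across the 9 libraries. Every member was at least 2 times as high in its highest library as in its lowest, after adding 10 CPM to both, whereas 47.4% of the 14251 genes with at least 50 UMIs did so (6752 genes). For all 9 genes the interval of the highest library lay above that of the lowest, as for 89.5% of all genes. The median ratio was 4.88 over the members and 1.95 over all genes tested, and the members were also counted more deeply, with a median of 2436 UMIs against 562. Part of these ranges rests on libraries 4, 5 and 6. Without them 8 of the 9 genes, all but Igfbp5, were at least 2 times as high in the highest library, against 37.2% of 13419 genes, and the median ratio was 2.42 over the members and 1.74 over all genes tested. Since each library is 1 pool of 3 animals, differences between pools, regions and sleep groups cannot be told apart.

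Igf1r was measured at 138, 180, 156, 87.5, 102, 82.2, 274, 328 and 236 CPM in libraries 1 to 9. Libraries 7, 8 and 9 were the highest and libraries 4, 5 and 6 the lowest, and the highest level was 4.00 times the lowest, or 2.38 times without libraries 4, 5 and 6. Igf2 stood at 15.8, 10.3, 13.9, 6.30, 39.1, 5.47, 42.3, 45.9 and 56.4 CPM. Library 9 was thus the highest and library 6 the lowest for this ligand, with the top 3 libraries overlapping each neighbour in their intervals. The ratio of 10.3 between these libraries became 5.45 without libraries 4, 5 and 6. Igf1 had low counts throughout, at 7.22, 6.21, 3.27, 8.83, 7.07, 2.73, 20.5, 22.1 and 16.0 CPM, and its 3 highest libraries were the same as those of Igf2. Its ratio was 8.08 over all libraries and 6.76 without libraries 4, 5 and 6.

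Igfbp6 had 143, 180, 193, 11.9, 33.9, 5.10, 128, 39.8 and 63.4 CPM in libraries 1 to 9, and the ratio of 37.7 between library 3 and library 6 was the widest of the 9 genes. It rests on the low libraries, since it was 16.2 without library 6 and 4.84 without libraries 4, 5 and 6, where those of Igf1 and Igf2 were wider. Igfbp7, by contrast, was highest in libraries 7 (802 CPM) and 8 (736 CPM) and lowest in library 6 (56.8 CPM), with a median of 337 CPM. Its ratio of 14.1 fell to 3.75 without library 6 and 2.79 without libraries 4, 5 and 6. Igfbp5 was highest in the libraries with much Gh. Its levels were 465, 219 and 439 CPM in libraries 4, 5 and 6 and ran from 54.3 to 97.6 CPM in the other 6, so the sets did not overlap. Igfbp2 ran from 21.0 CPM in library 6 to 231 CPM in library 9, Igfbp3 from 7.88 CPM in library 1 to 61.3 CPM in library 4, and Igfbp4 from 13.1 CPM in library 6 to 103 CPM in library 2. Without libraries 4, 5 and 6 the ratio of the highest to the lowest library was 2.57 for Igfbp2, in place of 11.0, 3.35 for Igfbp3, in place of 7.78, 2.93 for Igfbp4, in place of 7.85, and 1.80 for Igfbp5, in place of 8.57.

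**Figure D1:**
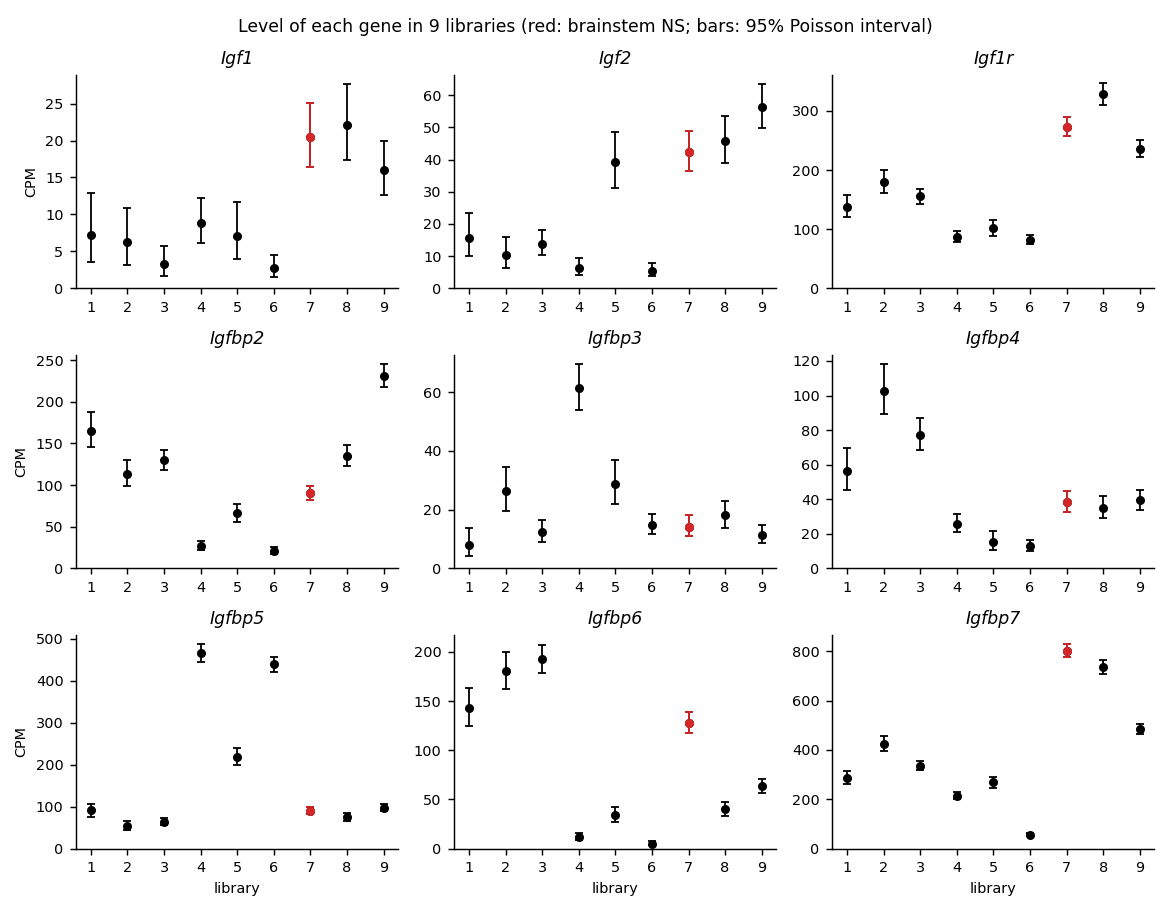
UMI level (CPM, linear axes that start at 0 and differ between panels) of the 9 genes in each of the 9 libraries, with exact 95% Poisson intervals as bars and library 7 (brainstem NS) in red. Igfbp6 has the widest ratio of the highest to the lowest library, which rests on its low values in libraries 4, 5 and 6, and Igfbp5 is higher in libraries 4, 5 and 6 than in the other 6.

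Shares of cells with a UMI ran from 0.311% to 1.45% of cells for Igf1, 0.281% to 3.39% for Igf2 and 7.26% to 20.7% for Igf1r. Among the binding proteins the lowest share in any library was 0.434% for Igfbp6 and the highest was 40.1% for Igfbp7 in library 7. When each cell was thinned to 500 UMIs, with shallower cells left out, the highest share of Igfbp7 was 26.8% and that of Igf1r was 13.6%.

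To find the cell types behind these levels, the 1999 listed cells of brainstem NS were examined by the study's own type names. In 8 types of at least 50 cells, 5 of 8 genes with at least 50 UMIs there were at least 2 times as high in their leading type as in the next (Igf1, Igf2, Igf1r, Igfbp2 and Igfbp6), against 21.5% of 5416 genes. Over these 8 genes the median ratio was 3.63, and over all genes tested it was 1.32. Igfbp3 had 25 UMIs in these types and was not counted.

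Listed pericytes, the contractile cells that wrap capillaries, led for both ligands and for 4 binding proteins. In these 168 cells Igf2 was at 662 CPM (538 to 807), and the next of the 8 types was VSMCA (arterial smooth muscle cells) at 16.2 CPM (5.27 to 37.9). Igfbp2 was at 1055 CPM (896 to 1234) in pericytes and at 123 CPM (76.3 to 188) in EPC (ependymocytes). The intervals did not overlap for either gene. Igf1 was at 297 CPM (216 to 399) in pericytes and 120 CPM (57.7 to 221) in macrophages, and these intervals overlapped. Igfbp6 (412 CPM), Igfbp7 (2366 CPM) and Igfbp4 (155 CPM) were also highest in pericytes among the 8 types.

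The listed pericytes were not a uniform group. When all cells were clustered without the genes of the IGF axis, 115 of the 168 lay in pericyte-like clusters and 47 in a fibroblast-like cluster, named from 8 fibroblast or leptomeningeal markers that include Dcn, Lum and Col1a2. The 115 cells carried all 8 pericyte markers, with Rgs5 at 5589 CPM and Kcnj8 at 1021 CPM, and had Dcn at 36.5 CPM. The 47 cells had Dcn at 4992 CPM and Lum, another collagen-binding proteoglycan, at 1870 CPM. Of the pericyte markers they held Vtn, at 5442 CPM (4868 to 6066) against 7862 CPM in the 115 cells, while Kcnj8, Abcc9 and Cspg4 were at 0 and Rgs5, Atp13a5, Pdgfrb and Higd1b ran from 33.4 to 217 CPM. All 44 Igf1 UMIs of listed pericytes came from those 47 cells (735 CPM, 534 to 986), and the 115 pericyte-like cells had 0, which allows up to 44.8 CPM by the exact interval. Igfbp2 showed the same split, with 2604 CPM in the 47 cells and 0 in the 115, as did Igfbp4 with 367 CPM and 0. Igf2 stood at 1536 CPM (1238 to 1884) in the 47 cells and 72.9 CPM (26.8 to 159) in the 115, and Igfbp6 at 985 and 24.3 CPM. Igfbp7 went the other way, at 1002 CPM (764 to 1289) in the fibroblast-like cells and 3171 CPM (2798 to 3580) in the pericyte-like cells.

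The cells listed as oligodendrocytes were also set against their markers. Of the oligodendrocyte markers, Mag, Mobp and Ermn were at 0 in these 43 cells, Mbp had 11.5 CPM from 1 UMI, and Mal and Cldn11 had 69.3 and 727 CPM. Cldn11 encodes a tight junction protein of myelin that leptomeningeal cells also carry. Of the 8 fibroblast or leptomeningeal markers 7 were detected, Dcn at 508 CPM, Col1a2 at 369 CPM, Col3a1 at 139 CPM and Col1a1 at 80.8 CPM. Lum was at 23.1 CPM from 2 UMIs in 1 cell, Slc6a13 and Slc22a6 were at 11.5 CPM from 1 UMI each, and Slc13a4 was at 0. Of these cells 38 of the 43 lay in the fibroblast-like cluster. Below, they are called listed oligodendrocytes. They held Igfbp6 at 2909 CPM (2561 to 3291), found in 76.7% of the cells, and Igfbp5 at 854 CPM (671 to 1072). The next listed types were pericytes at 412 CPM for Igfbp6 and glutamatergic neurons at 153 CPM (65.9 to 301) for Igfbp5. Igf1 was at 0 in the listed oligodendrocytes, Igf2 at 46.2 CPM (12.6 to 118) and Igfbp3 at 92.3 CPM (39.9 to 182) from 8 UMIs.

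Without the listed cells that lay in the fibroblast-like cluster, the leading type changed for Igf1 (macrophages, 120 CPM), Igfbp2 (EPC, 123 CPM), Igfbp4 (VSMCA, 90.9 CPM) and Igfbp6 (glutamatergic neurons, 78.5 CPM). Igf2 and Igfbp7 still led in pericytes, at 68.2 and 3294 CPM, and Igf1r in endothelial cells. The number of genes at least 2 times as high in their leading type was then 3 in place of 5 (Igf2, Igf1r and Igfbp2), against 22.1% of the same 5416 genes, a restriction chosen after seeing the data. Only 4 members then had at least 50 UMIs, and of these Igf1r alone was at least 2 times as high. The median ratio over the 8 genes counted above was 1.81 without those cells, in place of 3.63, and 1.34 over all 5416 genes.

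The receptor gene was led by endothelial cells, which line the vessels. Igf1r stood at 839 CPM (770 to 912) in 573 listed endothelial cells and was found in 50.3% of them. Microglia, the immune cells of the brain tissue, had 33.5 CPM (19.5 to 53.7) and a UMI in 2.91% of cells. The median depth was 910 UMIs per endothelial cell and 796 per microglial cell. Among types of at least 50 cells the next were glutamatergic neurons (153 CPM), EPC (117 CPM) and VSMCA (117 CPM), whose intervals overlapped. Igf1r was at 67.6 CPM (32.4 to 124) in listed pericytes.

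All 29571 cells were then grouped into clusters and classes named by markers, so that the same question could be asked in the libraries without listed types here. In the pooled classes 5 of the 9 genes (Igf2, Igfbp3, Igfbp4, Igfbp5 and Igfbp6) were at least 2 times as high in the leading class as in the next, against 20.1% of 14251 genes. Without libraries 4, 5 and 6 there were 3 (Igf2, Igfbp4 and Igfbp6), against 20.3% of the same genes, or 21.1% of the 13419 that then had at least 50 UMIs. Over all libraries the median ratio was 2.17 over the members and 1.29 over all genes tested, and without libraries 4, 5 and 6 it was 1.77 and 1.32. For 4 genes (Igf2, Igfbp2, Igfbp5 and Igfbp6) the leading class also led in every library with at least 20 of its cells, against 14.8% of all genes.

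**Figure D2:**
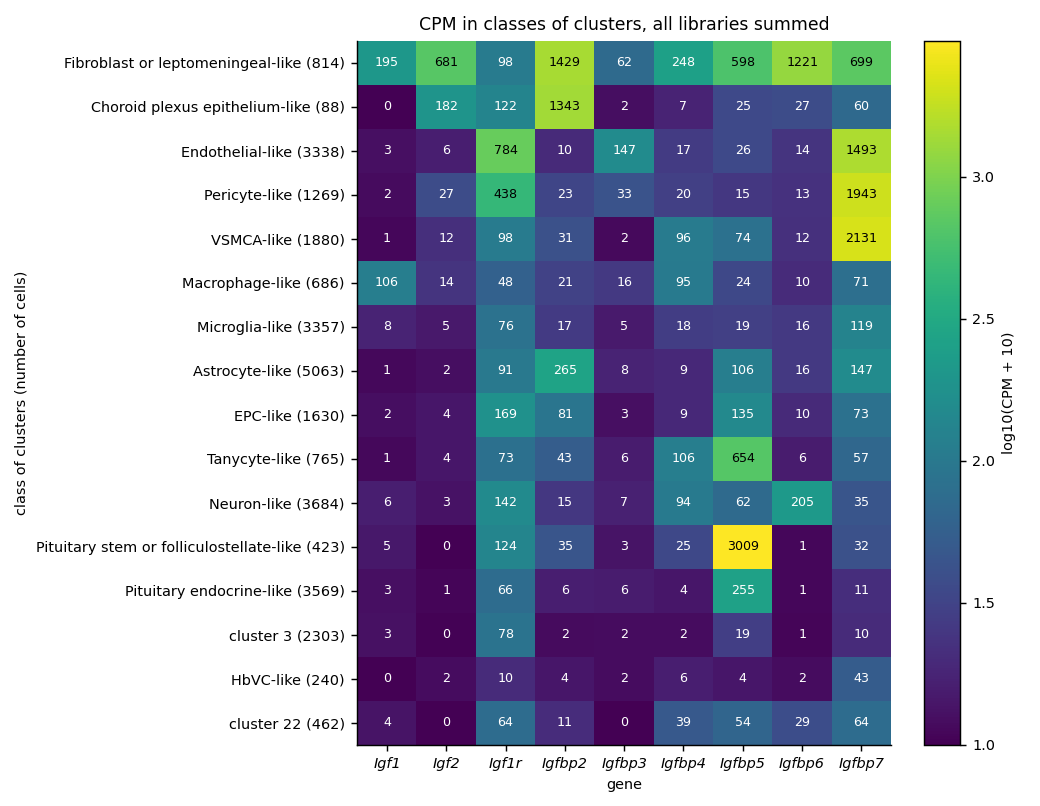
UMI level of each gene in each class of cells pooled over the 9 libraries, printed as CPM rounded to whole numbers and coloured by log10(CPM + 10), with the number of cells of each class in brackets. The fibroblast-like class is the highest for Igf1, Igf2, Igfbp2, Igfbp4 and Igfbp6, the endothelial-like class for Igf1r and Igfbp3, the pituitary stem-like class for Igfbp5 and the VSMCA-like class for Igfbp7.

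Igf2 was a gene of the fibroblast-like class. Those 814 cells were 2.75% of all cells and held 75.5% of the Igf2 UMIs, at 681 CPM (629 to 735). In libraries 1 to 9 the fibroblast-like level was 540, 407, 748, 506, 1163, 675, 588, 793 and 644 CPM, a range of 2.86 times that was narrower than the 10.3 times seen across whole libraries, or 5.45 times without libraries 4, 5 and 6. The choroid plexus-like class, with 88 cells of which 93.2% came from library 9, had 182 CPM (143 to 229) and a UMI in 44.3% of its cells. These cells were deep, with a median of 4240 UMIs, against 886.5 in the fibroblast-like class, where 29.2% of cells had a UMI. Microglia-like cells, with a median of 683 UMIs, had an Igf2 UMI in 0.357% of cells.

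Igf1 was shared by the fibroblast-like and macrophage-like classes. It was at 195 CPM (168 to 225) in the former and 106 CPM (80.8 to 136) in the 686 cells of the latter, named from markers such as Mrc1 and Pf4, and at 7.53 CPM (4.54 to 11.8) in microglia-like cells. The fibroblast-like class led in libraries 4 to 9, where it ran from 113 to 310 CPM. In libraries 1, 2 and 3 the macrophage-like class led with 278, 311 and 117 CPM, and the fibroblast-like class had 0, 0 and 17.8 CPM. Those macrophage-like levels rest on 6, 4 and 2 UMIs, and the intervals of the fibroblast-like class reached 153, 115 and 99.2 CPM. A UMI was found in 11.9% of fibroblast-like and 7.0% of macrophage-like cells, and in 0.240% of endothelial-like cells, whose median depth was 768 UMIs.

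Igf1r in the endothelial-like class was at 784 CPM (753 to 817), and these 3338 cells, 11.3% of all, held 41.9% of its UMIs. By library the class had 738, 699, 652, 173, 505, 159, 835, 1011 and 820 CPM, so that libraries 4 and 6 were the lowest. The class led in 7 of the 9 libraries, while pericyte-like cells were the highest in library 4, at 276 CPM (89.5 to 644) from 5 UMIs in 22 cells, and EPC-like cells in library 6, at 162 CPM (127 to 204). In both libraries these intervals overlapped that of endothelial-like cells, which was 115 to 251 CPM in library 4 and 82.0 to 277 CPM in library 6. The 2 endothelial-like clusters differed here. Cluster 2, led by Slco1a4 and other genes of the blood-brain barrier, ran from 471 CPM in library 4 to 1099 CPM in library 8. Cluster 14, led by Plvap, a protein of fenestrated endothelium, had 81.1 CPM in library 4 and 120 CPM in library 6 and from 353 to 716 CPM elsewhere.

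The pericyte-like class came next in Igf1r at 438 CPM (401 to 477), a level at odds with the 67.6 CPM of listed pericytes. The class also held 46 cells listed as endothelial, with Igf1r at 687 CPM (516 to 896), Cldn5 at 1056 CPM and Rgs5 at 3650 CPM, beside the 115 listed pericytes, with Igf1r at 60.8 CPM (19.7 to 142). Over all libraries 45.0% of the pericyte-like cells held a UMI of the endothelial genes Cldn5 or Flt1, and without those cells the class had 168 CPM (134 to 208). The 2 pericyte-like clusters stood at 641 CPM, with 82.7% of cells holding such a UMI (cluster 19), and at 84.3 CPM, with 5.79% (cluster 20). In cells without such a UMI the level was still 542 CPM (406 to 710) in the 112 of cluster 19. It was 77.2 CPM (52.5 to 110) in the 586 of cluster 20, so the 168 CPM of the class mixes unlike clusters. Across the 30 clusters the 5 in which over 50% of cells held Cldn5 or Flt1 were also the 5 highest in Igf1r, at 368 to 896 CPM, and the other 25 ran from 10.2 to 177 CPM. These 5 included a microglia-like cluster of 160 cells (cluster 27, 550 CPM) and an astrocyte-like cluster (cluster 24, 368 CPM). In their cells without Cldn5 or Flt1 the level was 495 CPM (271 to 831) in cluster 27 and 178 CPM (114 to 265) in cluster 24. How cells of these clusters came to hold endothelial transcripts was not tested.

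**Figure D3:**
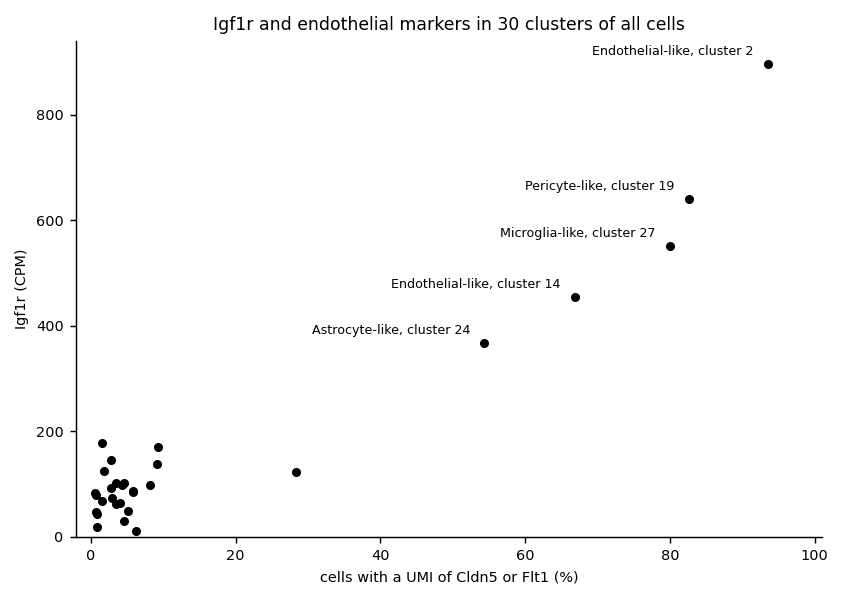
Igf1r level (CPM) against the percent of cells with a Cldn5 or Flt1 UMI, 1 point for each of the 30 clusters. The 5 named clusters above 50% lie at 368 to 896 CPM of Igf1r, and the other 25 lie at or below 177 CPM.

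Outside vessels the receptor transcript was spread at lower levels. EPC-like cells had 169 CPM of Igf1r, or 155 CPM without cells holding Cldn5 or Flt1, and neuron-like cells had 142 CPM, or 141 CPM without them. Leaving out such cells lowered astrocyte-like cells from 91.4 to 64.7 CPM and microglia-like cells from 75.7 to 43.6 CPM. The same filter left 484 of the 3338 endothelial-like cells, at 486 CPM (414 to 567). Macrophage-like cells had 48.5 CPM and HbVC-like cells, which carry hemoglobin transcripts, 10.2 CPM. A UMI was seen in 41.3% of endothelial-like, 22.1% of EPC-like, 17.0% of neuron-like and 4.44% of microglia-like cells, whose median depths were 768, 1372.5, 999.5 and 683 UMIs.

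Igfbp2, which binds IGF-2 with high affinity, was led by fibroblast-like cells at 1429 CPM (1354 to 1507), with choroid plexus-like cells at 1343 CPM (1232 to 1461), and these intervals overlapped. In libraries 1 to 9 the fibroblast-like level was 1080, 470, 926, 1128, 1965, 1435, 1069, 2046 and 1562 CPM, and the class led in every library with at least 20 of its cells. Without library 8 the choroid plexus-like class led, as the fibroblast-like level was then 1296 CPM. Astrocyte-like cells followed at 265 CPM. Their level was 417, 320 and 488 CPM in libraries 1, 2 and 3 but ran from 0 to 110 CPM in libraries 4 to 9. Different clusters made up the class in these sets, clusters 1 and 15 in the former and mostly cluster 8 in the latter. Cluster 1 had 37 cells in library 4, with 96.6 CPM. Libraries 1, 2 and 3 were the only ones in which astrocyte-like cells held most Igfbp2 UMIs (77.4%, 80.9% and 77.4%). Cluster 24, which was found in both sets, had 105, 170 and 207 CPM in libraries 1, 2 and 3 and 0 and 89.3 CPM in libraries 5 and 9. In this cluster 54.4% of cells held a UMI of Cldn5 or Flt1, so its levels may not be those of astrocytes alone.

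Igfbp6, another binding protein with a preference for IGF-2, was also led by fibroblast-like cells, at 1221 CPM (1152 to 1293). The class had 1413, 2036, 1335, 875, 1085, 647, 1835, 710 and 974 CPM in libraries 1 to 9 and led in all of them. Neuron-like cells came next at 205 CPM. In libraries 1, 2 and 3 they had 259, 270 and 267 CPM and held 80.3%, 71.9% and 85.4% of the Igfbp6 UMIs, while in libraries 4 to 9 they ran from 0 to 46.0 CPM. The neuron-like clusters of libraries 1, 2 and 3 were mostly clusters 10 and 13, led by Slc17a7, a vesicular glutamate transporter gene, and those of the other libraries mostly cluster 11, led by Gad1, Gad2 and Slc17a6. Cluster 11 had 0, 88.4 and 0 CPM in its 27 to 32 cells of libraries 1, 2 and 3, and cluster 10 had 34.4 CPM in its 35 cells of library 4. The type of neuron and the library therefore cannot be told apart for this gene. In microglia-like cells 1.13% had an Igfbp6 UMI, against 17.9% of neuron-like and 39.1% of fibroblast-like cells.

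Igfbp4, whose protein is cleaved by the protease PAPP-A, had a lower and wider pattern. Fibroblast-like cells led at 248 CPM (217 to 282), with 166, 188, 89.0, 322, 220, 225, 259, 227 and 296 CPM in libraries 1 to 9. Tanycyte-like (106 CPM), VSMCA-like (96.4 CPM), macrophage-like (95.2 CPM) and neuron-like cells (94.2 CPM) followed with intervals that overlapped. The fibroblast-like class led in 6 of 9 libraries. Neuron-like cells held 72.1%, 77.9% and 88.4% of the Igfbp4 UMIs in libraries 1, 2 and 3, at 91.9, 167 and 111 CPM.

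Igfbp5, which binds IGFs and matrix, was led by the pituitary stem-like class, a group of 423 cells that were nearly all in libraries 4, 5 and 6. Their level was 3009 CPM (2896 to 3125), 84.9% of them held a UMI, and with 1.43% of all cells they held 42.2% of the Igfbp5 UMIs. The class had 3601, 3051 and 2771 CPM in libraries 4, 5 and 6. Tanycyte-like cells had 654 CPM (596 to 715), from 224 CPM in library 5 to 1243 CPM in library 9, and fibroblast-like cells 598 CPM (550 to 650). The former are named from markers such as Rax and Col23a1 of tanycytes, glia that line the ventricle of the hypothalamus. The origin of tanycyte-like cells was not tested, and 15 of them were in library 7 (brainstem NS). At the coarser Leiden resolution of 0.5 all 423 pituitary stem-like cells and 645 of the 765 tanycyte-like cells formed 1 unnamed cluster of 1071 cells, which led at 2056 CPM (1983 to 2131), so the separate levels of these classes hold only for the finer clustering. Without libraries 4, 5 and 6 tanycyte-like cells led at 903 CPM and fibroblast-like cells had 538 CPM. That order rests on library 9, where 67 tanycyte-like cells held 107 of the 119 UMIs, at 1243 CPM against 258 CPM in fibroblast-like cells. Without library 9 as well, tanycyte-like cells had 262 CPM from 12 UMIs and fibroblast-like cells 676 CPM. In library 8, the other of these libraries with at least 20 tanycyte-like cells, they had 257 CPM (94.1 to 558) and fibroblast-like cells 268 CPM (196 to 359). Microglia-like cells of libraries 4, 5 and 6 had 263, 41.7 and 306 CPM of Igfbp5 against 0 to 23.3 CPM in the other libraries. Few cells carried those levels, with 22 UMIs in 7 of 110 cells, 2 UMIs in 2 of 102 and 8 UMIs in 2 of 24. The part of free RNA in them was not tested.

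Igfbp3, the main carrier of IGFs in serum, was a low gene of endothelial-like cells, with 147 CPM (133 to 161) and 65.6% of its UMIs in that class. The level within the class had a wide range. It was 59.8, 191, 80.0, 1226, 505, 688, 28.9, 66.2 and 43.7 CPM in libraries 1 to 9, so libraries 4, 5 and 6 were above all others. A UMI was found in 36.8% of endothelial-like cells of library 4 and 2.70% of those of library 7, with median depths of 665 and 889 UMIs. The high values came from cluster 14, where Igfbp3 was at 1582, 1059 and 854 CPM in libraries 4, 5 and 6 and from 7.57 to 246 CPM elsewhere. Plvap in that cluster was at 2061, 814 and 1332 CPM in the same libraries and from 0 to 39.2 CPM elsewhere. In cluster 2 Igfbp3 ran from 18.8 to 162 CPM, with libraries 4 (78.5 CPM) and 5 (115 CPM) inside the range of the others. Without library 4 the level of the class was 85.6 CPM, and without libraries 4, 5 and 6 it was 54.7 CPM and fibroblast-like cells led at 64.6 CPM.

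**Figure D4:**
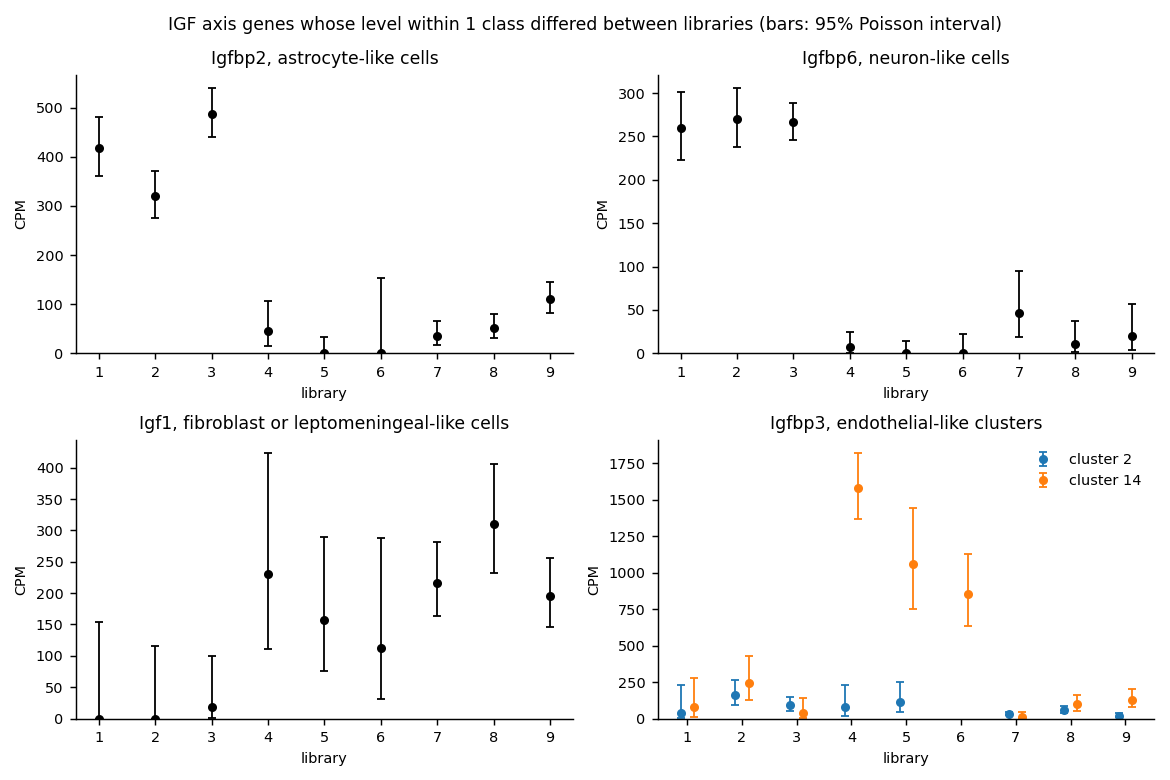
Level (CPM) within 1 class of cells in each library with at least 20 cells of the class, for astrocyte-like Igfbp2, neuron-like Igfbp6, fibroblast-like Igf1 and Igfbp3 in both endothelial-like clusters, with exact 95% Poisson intervals as bars. Astrocyte-like Igfbp2 and neuron-like Igfbp6 are highest in libraries 1, 2 and 3, where fibroblast-like Igf1 is lowest, and Igfbp3 of cluster 14 is highest in libraries 4, 5 and 6.

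Igfbp7 was a gene of all vascular classes. Over the pooled libraries VSMCA-like cells had 2131 CPM (2064 to 2199), pericyte-like cells 1943 CPM (1864 to 2025) and endothelial-like cells 1493 CPM (1450 to 1537), with no overlap of intervals, and a UMI was found in 77.2%, 75.4% and 63.8% of cells. Fibroblast-like cells followed at 699 CPM. The VSMCA-like class joined cluster 5, at 2207 CPM, and cluster 28, at 1116 CPM. The 120 cells of cluster 28 had the microglial markers Gpr34 and Cx3cr1 among their leading genes, beside smooth muscle genes. In VSMCA-like cells the level was 4543, 3642, 3789, 3691, 3533, 2034, 1839 and 1591 CPM in the 8 libraries with enough cells (all but library 6). Libraries 7, 8 and 9 were thus below the other 5 in that class, although library 7 was the highest of all when whole libraries were compared, where VSMCA-like, pericyte-like and endothelial-like cells were 423, 312 and 926 of its 3731 cells. In pericyte-like cells the levels of the same 8 libraries were 3076, 2602, 2272, 1875, 2627, 2360, 1855 and 1303 CPM. The order of the classes turned between libraries. Pericyte-like cells were above VSMCA-like cells in libraries 7 and 8, where the intervals overlapped only in library 8, and endothelial-like cells were above pericyte-like cells in library 4 (2638 CPM) and library 5 (2998 CPM), with overlapping intervals. Without cells holding Cldn5 or Flt1 outside the endothelial-like class, pericyte-like cells led with 2431 CPM and VSMCA-like cells had 2145 CPM. Microglia-like cells had an Igfbp7 UMI in 6.43% of cells.

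To see how far the makeup of each library went with its level, the level of each gene was computed from the pooled class levels and the UMI shares of the classes in that library. For Igfbp5 the measured level was 0.701 to 1.30 times the level computed in this way, and for Igf1r 0.758 to 1.26 times. For Igfbp3 the same ratio ran from 0.337 in library 7 to 5.42 in library 4, and for Igfbp6 from 0.311 in library 6 to 1.43. The pooled levels come from the same cells, so this describes the libraries and tests nothing.

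The fibroblast-like cells were divided further, after their values had been seen, into 5 sub-clusters that used none of the IGF genes. Sub-cluster 1 (247 cells, with Rbp4 and C4b among its leading genes) had Igf1 at 551 CPM (469 to 642), Igf2 at 1484 CPM and Igfbp2 at 3129 CPM. Sub-cluster 2 (246 cells, led by Prg4, Dapl1 and Nov) had Igf1 at 0 and Igf2 at 37.3 CPM, with Igfbp6 at 2247 CPM and Igfbp5 at 994 CPM. Sub-cluster 1 thus held the ligands with Igfbp2, and also Igfbp6 at 883 CPM, and sub-cluster 2 held Igfbp5 and Igfbp6 with little ligand. This contrast is between these sub-clusters only. The smaller sub-clusters, given below, need not fall on either side of it. Of the listed pericytes 26 fell in sub-cluster 1 and 0 in sub-cluster 2, and of the listed oligodendrocytes 0 and 34.

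The division could be followed in libraries 5, 7, 8 and 9, which held at least 10 cells of both sub-clusters. Sub-cluster 1 had Igf1 at 354, 828, 719 and 385 CPM and Igf2 at 1729, 1601, 1595 and 1067 CPM in libraries 5, 7, 8 and 9. Sub-cluster 2 had Igf1 at 0 in libraries 1, 2, 3, 5, 7, 8 and 9, with intervals that reached from 25.2 to 239 CPM. Its Igfbp6 was at 2141, 2510, 2435, 2057, 2688, 1558 and 1728 CPM and its Igfbp5 at 1882, 1297, 1269, 914, 1167, 485 and 582 CPM in those libraries. In libraries 1, 2 and 3, where fibroblast-like Igf1 was at or near 0, sub-cluster 1 had fewer than 10 cells and sub-cluster 2 had 24, 37 and 25.

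Of the smaller sub-clusters, number 3 (191 cells) had Igfbp7 at 1920 CPM, from 1068 to 3411 CPM in the 6 libraries that held it, with Igfbp2 at 1467 CPM and Igfbp6 at 145 CPM. It was led by the hormone genes Pomc and Prl together with Inmt, and the part of free pituitary RNA in it was not tested. Number 4 (96 cells, led by Sphk1, Fgfbp1 and Nnat) had Igf2 at 1175 CPM and Igfbp2 at 1410 CPM. Number 5 (34 cells) was led by Gkn3, Edn1 and Cldn5, which are endothelial genes, and its IGF values were not read as those of fibroblast-like cells.

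**Figure D5:**
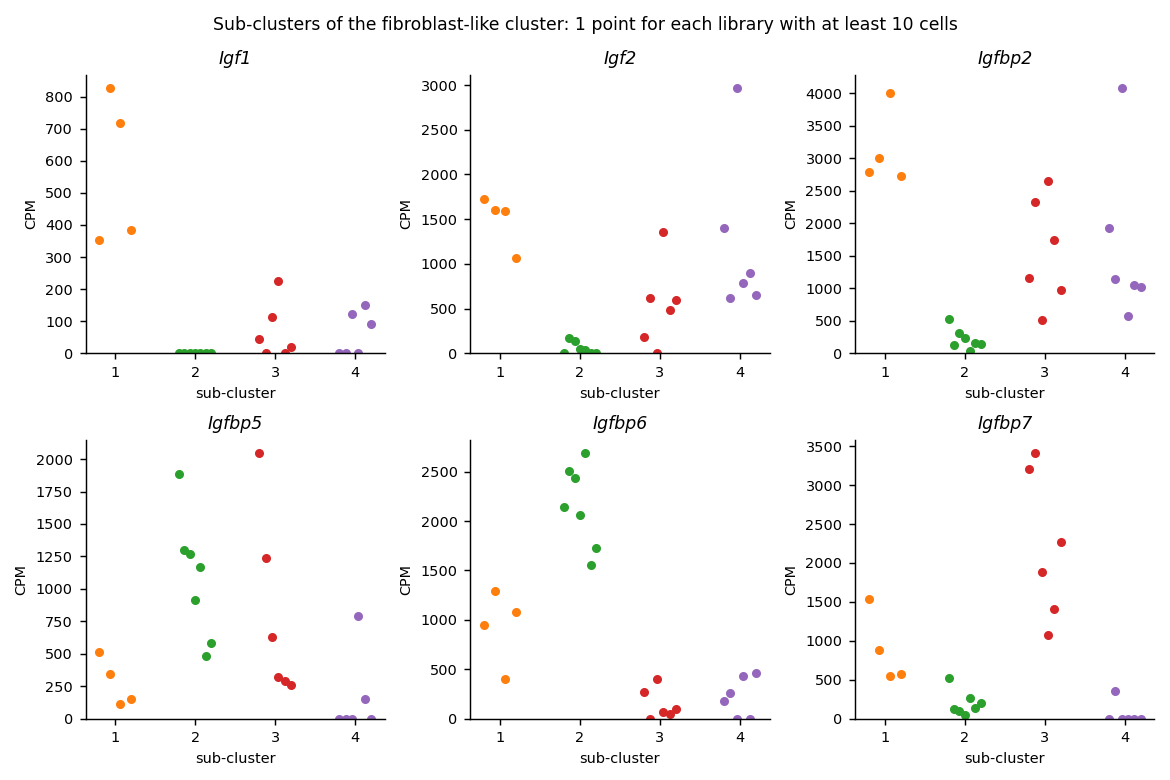
Levels (CPM, linear axes that differ between panels) of 6 ligand and binding protein genes in sub-clusters 1 to 4 of the fibroblast-like class, 1 point for each library with at least 10 cells of the sub-cluster. Igf1 lies at 354 to 828 CPM in sub-cluster 1 and at 0 in sub-cluster 2, and Igfbp6 is highest in sub-cluster 2, at 1558 to 2688 CPM.

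Detection in the same cells, taken over the whole fibroblast-like class, went the same way as the contrast of sub-clusters 1 and 2. Among fibroblast-like cells Igfbp2 was found in 75.6% of the 238 cells with an Igf2 UMI (69.7 to 80.9) and in 32.3% of the cells without, whose median depths were 961 and 844.5 UMIs. Igfbp6 went the other way, in 19.7% of cells with Igf2 (14.9 to 25.4) and 47.0% of cells without. Igfbp6 was found in 59.8% of cells with Igfbp5 and 31.4% of cells without. In endothelial-like cells Igfbp7 was found in 64.7% of cells with Igf1r and 63.2% of cells without, and these intervals overlapped. Of all fibroblast-like cells 33.9% held a ligand UMI, 89.6% a binding protein UMI and 54.1% UMIs of 2 or more binding proteins. In astrocyte-like cells, at a median of 547 UMIs, the share with 2 or more was 1.80%. Cells of 1 library are not replicates, so these shares carry intervals for counting error alone.

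The wider pathway was taken from a list of 53 genes, of which 52 were in the table. Of these, 32 genes that are not among the 9 members had at least 50 UMIs, and 7 of the 32 were at least 2 times as high in their leading class as in the next, a share to be read beside the 20.1% of all genes. Proteases that cut binding proteins were among them. Htra1, a serine protease, was at 1099 CPM in astrocyte-like cells and 109 CPM in the next class, and Ctsd (cathepsin D, a lysosomal protease) at 3309 CPM in microglia-like and 628 CPM in macrophage-like cells. Pappa2, which cuts IGFBP-3 and IGFBP-5, was at 67.5 CPM in cluster 3, an unnamed group led by Gh, Dlk1 and Pou1f1. The other 4 were Socs2 and Pik3r1 in pituitary stem-like cells (273 and 362 CPM), Grb14, an adaptor that inhibits the receptors, in endothelial-like cells (60.8 CPM) and Pdpk1 in neuron-like cells (137 CPM).

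The remaining receptors had flatter levels. Insr, the insulin receptor gene, was at 92.0 CPM in endothelial-like and 61.5 CPM in pericyte-like cells, and Igf2r, the receptor that clears IGF-2, was highest in choroid plexus-like cells at 34.9 CPM. Igfbp1 had only 15 UMIs in all cells and was highest in endothelial-like cells at 3.98 CPM, with macrophage-like cells next at 1.73 CPM. Igfals (the acid-labile subunit of serum IGF complexes) had 3 UMIs and the imprinted neighbour H19 8 UMIs, too few to place.

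The genes most like each member were sought over 87 sums of a class in a library with at least 50 cells, by Pearson's r of log2(CPM + 10). The points share libraries, depth and classes, so r is a description. The order depends on the addition: with 1 CPM in place of 10 CPM, 15 of the 27 genes among the 3 most like stayed among the first 3, and 5 of the 9 first genes stayed first. Podn went to rank 13 for Igf2 and Dock9 to rank 38 for Igf1r. With 10 CPM added Igf2 was most like Podn (0.87), Slc6a13 (0.87) and Lum (0.87), and Igfbp6 most like Fhl2 (0.85), Col6a1 (0.83) and Podn (0.82). Igf1r was most like Pcmtd1 (0.86), Ptprg (0.83) and Dock9 (0.79), and Igfbp3 most like Kdr (0.79), Clec1a (0.78) and Clec14a (0.74). Igfbp7 had the highest value of the 9 genes, 0.90 with Tinagl1. Igf1 was most like Rab7b (0.74), Igfbp2 most like Slc13a4 (0.78), Igfbp5 most like Gas1 (0.73) and Igfbp4 most like Lgals1 (0.63). Between members the highest values were 0.73 for Igf2 with Igfbp2 and 0.72 for Igf2 with Igfbp6.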

How the data were processed

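Single-cell suspensions from 9 libraries of 3 pooled mice each had been sequenced with 10x Genomics version 2 chemistry. The table that the authors deposited holds UMI counts, whole and not normalized, with genes in rows and cells in columns, and the labels name Cell Ranger 2.2.0, R 3.5.3 and GRCm38. The annotation release is not given in the sources used here, and 0 columns of cells were left unused. Library 7 was assigned to brainstem NS by the listed barcodes, and the other 8 libraries to no group. The annotation of cells was used in part and covers 1999 listed cells of that library, the first in its barcode order.

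Counts were summed per library, listed type or class and scaled to CPM. A level has an exact Poisson interval and a share of cells an exact Clopper-Pearson interval, each at 95%. UMIs were counted, so PCR copies were collapsed, but intervals cover counting error only, and counts from 1 end of transcripts do not compare levels between genes. With 8 libraries in no group there was no test and no p-value. All cells were clustered in scanpy 1.11.5 (Python 3.11.15, leidenalg 0.10.2) on 2000 variable genes without the 9 genes and their pathway list, with 13 principal components, 20 neighbours, shared-neighbour weights above 0.0667, Leiden resolution 1 and seed 0. A cluster was named "-like" from markers if at least 3 of them reached 2 times their level in the other cells, after adding 10 CPM, with a UMI in 10% of its cells or more. Mog, a marker of oligodendrocytes, was not in the table. Some marker genes are not reported here. Doublets were called with Scrublet in 0.473% of cells, too few to rely on, and all cells were kept. The steps were tested on simulated data. The 2000 simulated cells, drawn from the mean profiles of 8 classes found here, were recovered as 8 clusters. They had no variation within a class beyond depth and counting and no mixed cells. Their recovery therefore does not show that the real clusters are pure. For the leading-class rule over 14251 genes, all 36 genes of at least 50 CPM raised 4-fold in astrocyte-like cells were called. So were 60.0% of all 200 raised genes and 0.00712% of the unchanged genes. Genes raised in other classes were not simulated.

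Named genes were the 9 members, pathway genes, the 3 genes most like a member and the markers. Members and lists were chosen with earlier results of these data known. Alternatives were cells of at least 1000 UMIs alone, totals without mitochondrial, hemoglobin and pituitary hormone genes, the mean over cells, no called doublets, thinning to 500 UMIs, subtraction of free RNA as the lowest CPM among types of at least 20000 UMIs, classes in place of listed types, Leiden resolution 0.5 and a pseudocount of 1 CPM. Others were added after seeing the data: leaving out listed cells in the fibroblast-like cluster, libraries 4, 5 and 6, each library in turn, or cells holding Cldn5 or Flt1 outside the endothelial-like class, and dividing the fibroblast-like and endothelial-like classes.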

Additional observations from a re-analysis of the deposited data

How the results depend on the processing

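No paired analysis was possible because 8 of the 9 libraries could be tied to no sample from the part of the study's cell lists used here. Without the listed cells in the fibroblast-like cluster, chosen after seeing the data, 3 genes in place of 5 were at least 2 times as high in their leading listed type, against 22.1% of genes tested, and 5 of 9 kept that type. Without libraries 4, 5 and 6, also chosen after seeing the data, 3 genes in place of 5 passed that rule for classes, against 20.3%, and 8 in place of 9 were at least 2 times as high in the highest library as in the lowest, against 37.2%. The median over the 9 genes of the highest r with another gene was 0.958 over the 8 listed types in place of 0.787 over the 87 sums of classes by library. Leiden resolution 0.5 moved 1 of 10 values (Igfbp7 in VSMCA-like cells, 2207 CPM) and gave none for the leading class of Igfbp5, which merged with most tanycyte-like cells. Classes in place of listed types moved 5 values and left 4 the same. Thinning to 500 UMIs moved 14 of 18 shares. With cells of at least 1000 UMIs 20 of 33 values moved beyond their counting intervals, with totals without mitochondrial, hemoglobin and pituitary hormone genes 16 of 33, and with the mean over cells 10 of 22. Without called doublets none of 22 did, but too few doublets were called for this to show much. With free RNA subtracted none of 11 did. The lowest listed type stood at 0 for Igf1, Igf2, Igfbp2, Igfbp3, Igfbp4, Igfbp5 and Igfbp6. Nothing was thus subtracted for these genes, whose values could not move, and the part of free RNA in them remains untested. Totals without mitochondrial, hemoglobin and pituitary hormone genes raise CPM most in libraries 4, 5 and 6, where Gh held 25.3% to 32.1% of UMIs. Ratios with library 6 as the lowest are therefore smaller on such totals. Shallow libraries limit the low genes most, as 3 counts in library 1 stand for 1.97 CPM.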

Other observations

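The insulin gene Ins2, which is on the pathway list, had 23 UMIs, all in the 82 choroid plexus-like cells of library 9, where it stood at 58.7 CPM (37.2 to 88.1) and in 17 cells (20.7%). Ins1 had 3 UMIs in the same cells (7.66 CPM). These cells had a median of 4522.5 UMIs and carry no type name in the study's list as held here. Over all cells Ins2 stood at 4.72 CPM in library 9, and in library 7, with 0 UMIs, its upper limit was 0.830 CPM. Library 7 held only 5 choroid plexus-like cells, with an upper limit of 406 CPM, so absence from such cells there was not shown.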
